A study of Mus musculus with 4 samples.

Results

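In all, 10 myeloid C-type lectin receptor genes were named for this description, namely *Clec4e*, *Clec4d*, *Clec4n*, *Clec5a*, *Clec7a*, *Clec4a1*, *Clec4a2*, *Clec4a3*, *Clec12a* and *Clec10a*. Of these 10 genes, 9 were among the 16375 genes in the expression table of bone marrow-derived macrophages (BMDMs). *Clec7a*, which encodes the beta-glucan receptor Dectin-1, was not listed, so its expression was not analysed here. The macrophages were grown with macrophage colony-stimulating factor from bone marrow of wild-type (WT) mice and of *lncLy6c* knockout (LNCKO) mice on a C57BL/6J background, which lack a long noncoding RNA throughout the body and not in macrophages alone. Each genotype was cultured without butyrate (control) or with 500 µM of butyrate, a short-chain fatty acid made by gut bacteria, for 24 h. This gave 4 groups with 1 RNA library each, and values below stand in the order control and then butyrate of WT, followed by control and then butyrate of LNCKO, unless said otherwise. The labels give no age, sex or number of donor mice for these cultures. With 1 library per group, differences between libraries had no replicate check and could not be tested, and no model that pools the genotypes or the treatments was fitted, so every interval below covers counting error only.

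C-type lectin receptors are surface proteins of macrophages, dendritic cells and neutrophils that bind sugars and lipids of fungi, bacteria and dying cells. The activating receptors signal through adaptor chains such as FcR gamma and DAP12 to the kinase Syk and the complex of CARD9, BCL10 and MALT1, which switches on NF-kB. The inhibitory receptors carry a tail motif that recruits phosphatases such as SHP-1, and many of both kinds lie side by side in gene clusters.

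All 10 macrophage identity genes were above 0 in the 4 libraries. This does not tell macrophages from other cells, because the markers of other cell types were above 0 too. *Adgre1* (F4/80) was between 5.86 and 7.45 FPKM (fragments per kb of gene span and per 1000000 fragments of the library), and *Csf1r*, the receptor for macrophage colony-stimulating factor, was between 38.3 and 46.5 FPKM. Transcripts of neutrophils and their precursors were present as well, with *S100a8* at 957 to 1316 FPKM, and no gene of the marker lists for macrophages, monocytes, neutrophils, dendritic cells, B cells, or mast cells and basophils was at 0 in any library. Fewer cells of a type and less RNA per cell cannot be told apart in such bulk libraries. Library totals, inferred from the FPKM on the gene span, ranged from 53363944 to 65521713 fragments. No row carried the symbol of *lncLy6c*, so the deletion was not checked in these libraries. The Y-linked gene *Ddx3y* was at 0.0446 and 0.0320 FPKM in the WT control and WT butyrate libraries and at 4.44 and 4.58 FPKM in the LNCKO control and LNCKO butyrate libraries, so genotype and the sex of the donors cannot be told apart in any comparison of LNCKO with WT.

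In the genome, 6 of the 9 listed genes lie in a single cluster of 368 kb (chr6:122921848-123289870, GRCm38, GENCODE M21) with 9 protein-coding genes in the order *Clec4a1*, *Clec4a3*, *Clec4a4*, *Clec4b1*, *Clec4a2*, *Clec4b2*, *Clec4n*, *Clec4d* and *Clec4e*. *Clec4a1* (ENSMUSG00000049037) spans chr6:122921848-122934619, *Clec4a3* chr6:122952515-122969875, *Clec4a2* (ENSMUSG00000030148) chr6:123106428-123143999, *Clec4n* chr6:123229843-123247021, *Clec4d* (ENSMUSG00000030144) chr6:123262111-123275265 and *Clec4e* chr6:123281789-123289870. *Clec4e* is on the minus strand and the other members of the cluster are on the plus strand. *Clec5a* (chr6:40574894-40585821, minus strand) and *Clec12a* (chr6:129342691-129365303, plus strand) are on the same chromosome away from the cluster, and *Clec10a* is on chromosome 11 (chr11:70156197-70170834, plus strand). The bases upstream of the RefSeq starts of 4 cluster genes are shown because these neighbours had unlike levels and unlike differences with butyrate, as described below. The RefSeq sequences (GRCm38.p6) are written 5′ to 3′ on the plus strand, the strand of all 4 genes, up to the last base before the RefSeq start. For *Clec4a2* they end before an annotated exon within the window, and the printed bases lie inside the gene span of GENCODE. Capitals mark the core of a PU.1 site (GAGGAA, or TTCCTC where it lies on the minus strand) and the NF-kB pattern described after them. They cover chr6:122921598-122921847 for *Clec4a1*, chr6:122952265-122952514 for *Clec4a3*, chr6:123122440-123122621 for *Clec4a2* and chr6:123261857-123262106 for *Clec4d*.
Clec4a1: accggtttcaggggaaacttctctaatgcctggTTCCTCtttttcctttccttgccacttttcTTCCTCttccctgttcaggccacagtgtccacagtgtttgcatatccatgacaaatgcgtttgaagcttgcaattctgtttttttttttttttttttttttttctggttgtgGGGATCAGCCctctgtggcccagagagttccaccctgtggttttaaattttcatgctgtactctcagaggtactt
Clec4a3: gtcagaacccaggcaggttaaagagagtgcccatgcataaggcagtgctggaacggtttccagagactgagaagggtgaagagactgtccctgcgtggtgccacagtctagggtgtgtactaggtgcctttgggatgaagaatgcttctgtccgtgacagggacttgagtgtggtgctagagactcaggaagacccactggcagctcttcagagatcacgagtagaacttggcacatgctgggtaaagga
Clec4a2: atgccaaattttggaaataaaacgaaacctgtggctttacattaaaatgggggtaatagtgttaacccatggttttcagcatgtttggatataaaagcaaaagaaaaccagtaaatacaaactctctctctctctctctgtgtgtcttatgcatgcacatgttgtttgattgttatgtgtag
Clec4d: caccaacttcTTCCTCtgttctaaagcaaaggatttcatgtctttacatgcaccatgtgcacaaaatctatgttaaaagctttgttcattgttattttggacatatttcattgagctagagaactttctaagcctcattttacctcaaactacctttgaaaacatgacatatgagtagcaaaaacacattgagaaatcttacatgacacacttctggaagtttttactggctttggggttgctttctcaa

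Promoter sequence was at hand for 8 of the 10 genes, all but *Clec4n* and *Clec10a*. In the 250 bases before the RefSeq start, with both strands searched, 6 of these 8 genes held GAGGAA, the core bound by the myeloid factor PU.1, against 23.1% of 27025 promoters of the same length. *Clec4a1* held it at 217 and 187 bases before its start and *Clec4d* at 240 bases before its start. *Clec7a*, which has no expression values here, is among the 8 genes and among the 6 with this core. The longer form GAGGAAGT, which contains the core, was in 0 of the 8 and in 2.44% of all promoters. An NF-kB pattern of GGGA, 4 bases of any kind, then CC was in 1 of the 8, at 75 bases before the start of *Clec4a1*, and in 17.3% of all promoters. A C/EBP pattern, TTGCNNAA, was in *Clec4e* and *Clec12a* and in 9.55% of all promoters, and a form with 4 bases of any kind in place of NN was in 0 of the 8 and in 9.22%. The AP-1 pattern TGANTCA was in *Clec12a* alone of the 8 and in 6.87% of all promoters. *Clec4a3* and *Clec4a2* held none of these letters in the window. The matches are descriptions of letters and not of bound sites, and the RefSeq starts of *Clec4a2*, *Clec5a* and *Clec12a* lie inside the genes as GENCODE draws them. All 250 bases searched for *Clec12a*, and with them its matches, are in annotated exons, as are 68 of those for *Clec4a2* and 16 of those for *Clec5a*.

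Levels of the genes were first compared with each other. FPKM on the gene span cannot be compared between genes with introns of unlike size, so the fragments were divided by exon length instead (fragments per kb of exon and per 1000000 fragments). Exon length was the union of all annotated exons of a gene, such as 1327 bases for *Clec4a3*, 1599 for *Clec4d* and 5528 for *Clec12a*. Genes with many or long annotated exons therefore stand lower on this scale. On this scale *Clec4a1* was the highest, with a mean over the 4 libraries of 306 (range 268 to 404), followed by *Clec4a3* with 203 (191 to 212) and *Clec4d* with 123 (102 to 133). These 3 genes did not overlap with each other or with any gene below them on this scale. The places of *Clec4a3* and *Clec4d* above *Clec12a* rest on the exon length, since *Clec12a* had more fragments than either in each library. *Clec12a* followed with 55.8 (52.9 to 58.2), and *Clec4a2*, with 45.4 (39.3 to 59.9), overlapped with it. *Clec5a* at 20.6 (18.6 to 23.4) and *Clec4e* at 18.9 (18.2 to 20.3) overlapped, as did *Clec10a* at 12.0 (11.8 to 12.2) and *Clec4n* at 10.9 (9.01 to 14.1). The order thus ran from *Clec4a1*, *Clec4a3* and *Clec4d* at the top to *Clec10a* and *Clec4n* at the bottom, and the spread is over 4 different conditions and not over replicates.

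**Figure D1:**
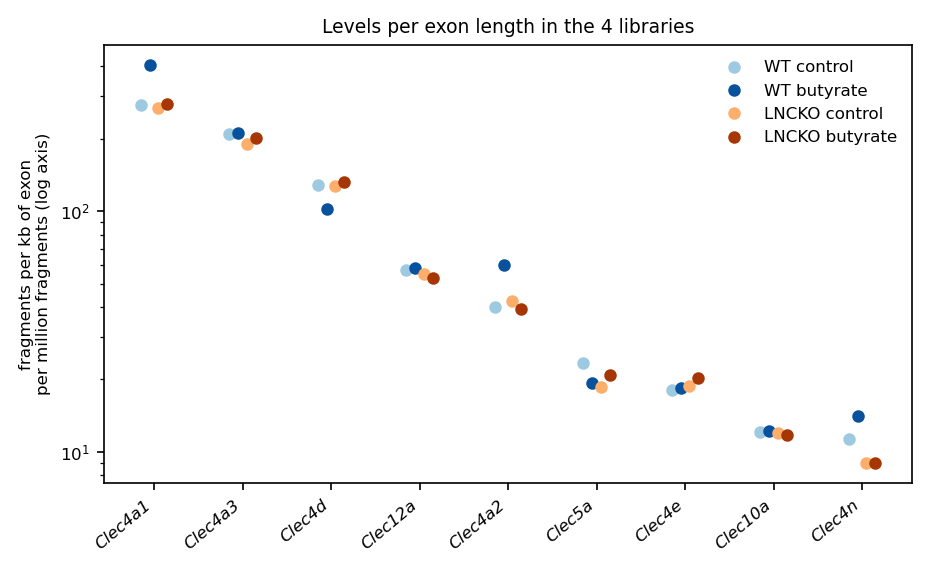
Fragments per kb of exon and per 1000000 fragments (log axis) of the 9 listed genes, 1 point per library, ordered by the mean over libraries. *Clec4a1* (mean 306) stood highest and *Clec10a* and *Clec4n* (12.0 and 10.9) lowest, and the WT butyrate point departed from the other 3 in *Clec4a1*, *Clec4a2* and *Clec4d*.

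The activating receptors for microbial glycolipids were unlike each other in WT butyrate, where *Clec4d* was low and *Clec4e* was not. *Clec4e* encodes Mincle, a receptor for mycobacterial cord factor, and was at 11.2 FPKM without and 11.3 FPKM with butyrate in WT, and at 11.5 and 12.5 FPKM in LNCKO. The 4 values lay close together, the highest being 1.12 times the lowest. *Clec4d* encodes MCL, which pairs with Mincle, and was at 15.6, 12.4, 15.4 and 16.1 FPKM in the same order of libraries. It was low in WT butyrate only, and without that library the highest value was 1.04 times the lowest. In WT, the butyrate library had 0.795 times the *Clec4d* FPKM of the control library (95% counting interval 0.773 to 0.816, from 9661 and 11584 fragments), and in LNCKO the ratio was 1.04 (1.02 to 1.07). Thus these gene neighbours, which encode partner receptors, stood apart in WT butyrate, where the *Clec4e* ratio to control was 1.01 (0.972 to 1.05).

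*Clec4n* encodes Dectin-2, a receptor for fungal mannans that signals through FcR gamma, and had the fewest fragments of the 9 genes. It was at 0.936 and 1.16 FPKM without and with butyrate in WT and at 0.745 and 0.745 FPKM in LNCKO, from 907, 1184, 683 and 839 fragments. Both LNCKO libraries were below both WT libraries. The LNCKO to WT ratio was 0.796 (0.719 to 0.880) without butyrate and 0.640 (0.585 to 0.700) with it. The butyrate to control ratio was 1.24 (1.14 to 1.36) in WT and 1.00 (0.903 to 1.11) in LNCKO. Its mean of 0.898 FPKM was below the filter of 1 FPKM used for counts over genes, so it is not among the 6809 genes used for shares of all genes, but it is among the 9 receptors counted against 1.5-fold.

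*Clec5a* encodes MDL-1, which signals through DAP12 and DAP10, and was at 8.22, 6.82, 6.54 and 7.32 FPKM. WT control was the highest of the 4 libraries. The butyrate to control ratio was 0.829 (0.796 to 0.863) in WT and 1.12 (1.07 to 1.17) in LNCKO, that is, below 1 in one genotype and above 1 in the other. Without butyrate the LNCKO library had 0.795 times the WT level (0.762 to 0.829), and with butyrate 1.07 times (1.03 to 1.12).

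The Clec4a genes encode the dendritic cell immunoreceptor (DCIR) family, and *Clec4a2* is the counterpart of human CLEC4A with an inhibitory motif in its tail. *Clec4a1* was at 33.6 FPKM without and 49.3 FPKM with butyrate in WT, and at 32.7 and 33.9 FPKM in LNCKO. *Clec4a2* was at 3.13, 4.66, 3.29 and 3.06 FPKM in the same libraries. Both genes were high in WT butyrate and close together in the other 3 libraries, where the highest value was 1.04 times the lowest for *Clec4a1* and 1.08 times for *Clec4a2*. The WT butyrate to control ratio was 1.47 for *Clec4a1* (1.44 to 1.49, from 37267 and 24202 fragments). For *Clec4a2* it was 1.49 (1.44 to 1.54, from 10367 and 6634 fragments). In LNCKO the same ratios were 1.04 (1.02 to 1.06) for *Clec4a1* and 0.929 (0.899 to 0.960) for *Clec4a2*. *Clec4a3*, the neighbour next to *Clec4a1*, did not share this pattern, with 16.0, 16.2, 14.6 and 15.4 FPKM and a WT butyrate ratio of 1.02 (0.994 to 1.04).

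The other inhibitory receptor and the galactose-binding lectin varied little. *Clec12a* encodes MICL, an inhibitory receptor for uric acid crystals and dead cells, and was at 14.0, 14.2, 13.4 and 12.9 FPKM in that order of libraries. Its LNCKO to WT ratio was 0.962 (0.941 to 0.982) without butyrate and 0.908 (0.890 to 0.927) with it. *Clec10a* encodes MGL1, which binds galactose and N-acetylgalactosamine and is known from alternatively activated macrophages. It was at 2.40, 2.41, 2.37 and 2.34 FPKM, and the counting interval of the ratio included 1 in all 4 comparisons. Of the 9 genes it had the smallest range, the highest library being 1.03 times the lowest.

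**Figure D2:**
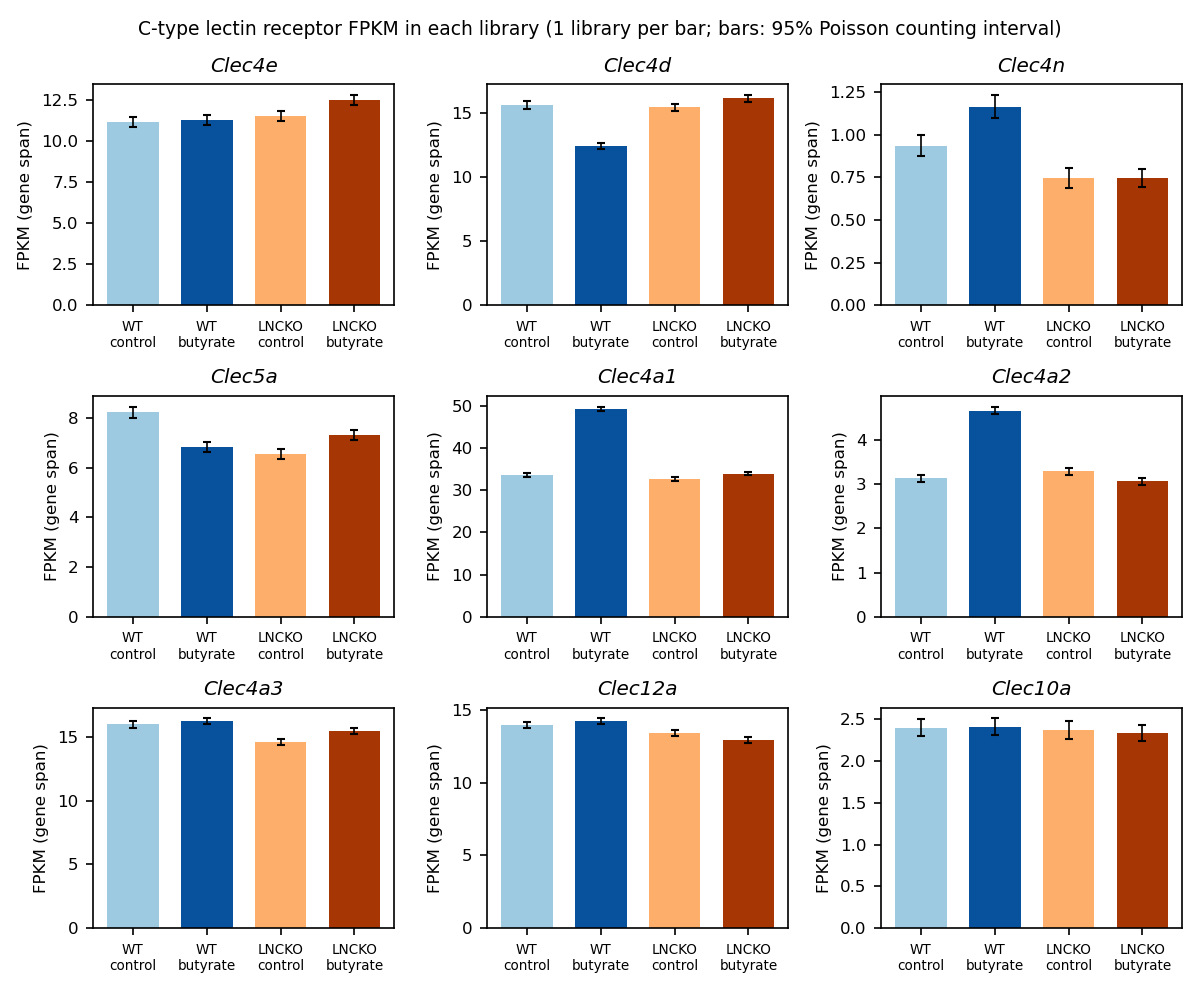
FPKM on the gene span of each of the 9 listed genes in the 4 libraries, 1 library per bar, with 95% Poisson counting intervals as error bars. The WT butyrate bar was the highest in *Clec4a1* (49.3), *Clec4a2* (4.66) and *Clec4n* (1.16) and the lowest in *Clec4d* (12.4), while *Clec4e* and *Clec10a* were nearly level.

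The 4 comparisons were then set against all genes, to place the receptors in the spread of their libraries. For this, 6809 genes with a mean of at least 1 FPKM were used, 8 of the 9 receptors among them, while receptors were counted over all 9, and differences were taken on the log2 scale of FPKM + 0.1. In WT, butyrate against control gave a median of 0.02 over the 9 receptors, with 7 above 0 and 2 below, beside a median of -0.05 over all genes. *Clec4a1* (0.55) and *Clec4a2* (0.56) were outside the central 95% of all genes (-0.44 to 0.43) and stood at places 104 and 101 from the top of the 6809. *Clec4d* (-0.33) and *Clec5a* (-0.27) were inside it, at places 413 and 684 from the bottom. None of the 9 receptors was at least 1.5-fold higher or lower, against 1.35% of all genes higher and 0.999% lower. With libraries scaled by their median ratio, 2 receptors, *Clec4a1* and *Clec4a2*, came to lie past 1.5-fold. *Clec4a3*, *Clec4e*, *Clec10a* and *Clec12a* had values of 0.01 to 0.03, and with values rescaled to 1000000 per library, with exon length or with libraries scaled by the macrophage identity genes all 4 were below 0, the lowest being -0.15 for *Clec10a* under the last of these.

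In LNCKO, the same comparison gave a median of 0.05 over the 9 receptors beside -0.02 over all genes, with values from -0.10 (*Clec4a2*) to 0.16 (*Clec5a*). All 9 receptors lay inside the central 95% of all genes (-0.25 to 0.27). None of the 9 receptors was past 1.5-fold, against 0.529% of all genes higher and 0.22% lower. The spread over all genes was narrower than in WT, with an SD of 0.17 beside 0.25 on the log2 scale.

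**Figure D3:**
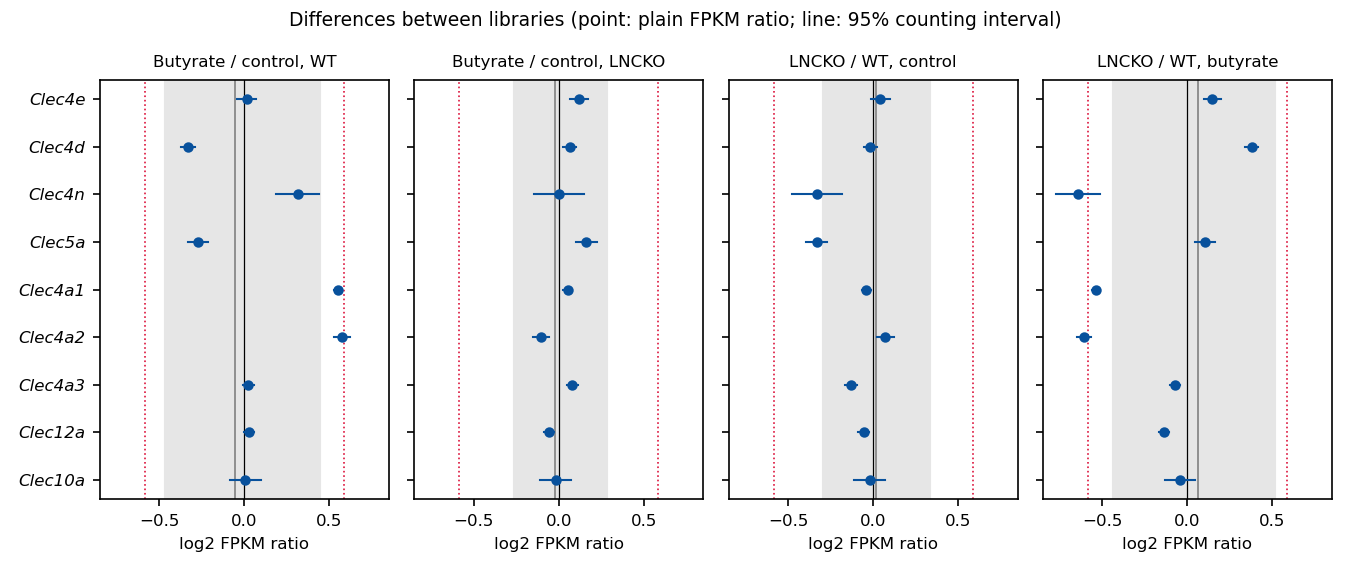
Log2 of the plain FPKM ratio (x axis) of the 9 listed genes (y axis) in the 4 comparisons, with 95% counting intervals as lines, the central 95% of 6809 genes in grey with their median as a grey line, and 1.5-fold as dotted lines. *Clec4a1* and *Clec4a2* lay outside the grey area to the right with butyrate in WT and, with *Clec4n*, to the left in LNCKO against WT under butyrate, and all 9 genes lay inside it with butyrate in LNCKO.

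In LNCKO against WT without butyrate, the genotypes at baseline, the median was -0.04 over the 9 receptors beside 0.02 over all genes, and 7 of the 9 were below 0. Of these, *Clec4a1* (-0.04), *Clec4d* (-0.02) and *Clec10a* (-0.02) turned to at or above 0 with libraries scaled by the macrophage identity genes (0.00, 0.03 and 0.02). *Clec5a* (-0.33) and *Clec4n* (-0.29) were below the central 95% of all genes (-0.28 to 0.33). None of the 9 receptors was past 1.5-fold, against 0.617% of all genes higher and 0.47% lower.

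LNCKO against WT under butyrate shares the WT butyrate library with the comparison of butyrate and control in WT, so the 2 comparisons are not independent. The median was -0.07 over the 9 receptors beside 0.06 over all genes with 6 of the 9 below 0, whereas with libraries scaled by the macrophage identity genes it was 0.12 beside 0.25 with 3 below 0, *Clec4a1*, *Clec4a2* and *Clec4n*. *Clec4a2* was at -0.59, *Clec4n* at -0.58 and *Clec4a1* at -0.54, all below the central 95% of all genes (-0.42 to 0.49), and *Clec4d* was at 0.38. *Clec4a2* was the 1 receptor of 9 called at least 1.5-fold lower, and none was called higher, against 1.29% of all genes lower and 1.56% higher. This call depended on the scale, since 0 receptors were called with a pseudocount of 1 or with libraries scaled by the macrophage identity genes. There were 2 with no pseudocount (*Clec4a2* and *Clec4n*) and 3 with libraries scaled by their median ratio (*Clec4a1*, *Clec4a2* and *Clec4n*). With values rescaled to 1000000 per library or with exon length, *Clec4a2* fell short of 1.5-fold and *Clec4n* was the receptor past it. The LNCKO to WT ratio of plain FPKM was 0.656 for *Clec4a2* (0.637 to 0.676) and 0.688 for *Clec4a1* (0.677 to 0.699). For *Clec4d* it was 1.30 (1.27 to 1.33).

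The difference between genotypes was computed as the log2 butyrate difference in WT minus that in LNCKO. It was 0.66 for *Clec4a2* (0.56 in WT and -0.10 in LNCKO, counting SE 0.033), 0.50 for *Clec4a1* (0.55 and 0.05) and 0.29 for *Clec4n* (0.29 and 0.00). It was -0.43 for *Clec5a* (-0.27 and 0.16) and -0.39 for *Clec4d* (-0.33 and 0.06). *Clec12a*, *Clec10a*, *Clec4a3* and *Clec4e* lay between -0.10 and 0.08, and the signs for *Clec12a* and *Clec10a* turned with libraries scaled by the macrophage identity genes, that for *Clec10a* also with values rescaled to 1000000 per library or with exon length. The median over the 9 receptors was 0.02 beside -0.04 over all genes, with 5 above 0 and 4 below. *Clec4a2* was the 1 receptor of 9 past 1.5-fold, against 1.5% of all genes higher in WT and 1.41% lower, and it was no longer past 1.5-fold with a pseudocount of 1 or with libraries scaled by the macrophage identity genes. *Clec4a2* and *Clec4a1* were outside the central 95% of all genes (-0.49 to 0.48). Without replicates the difference between genotypes was not tested.

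**Figure D4:**
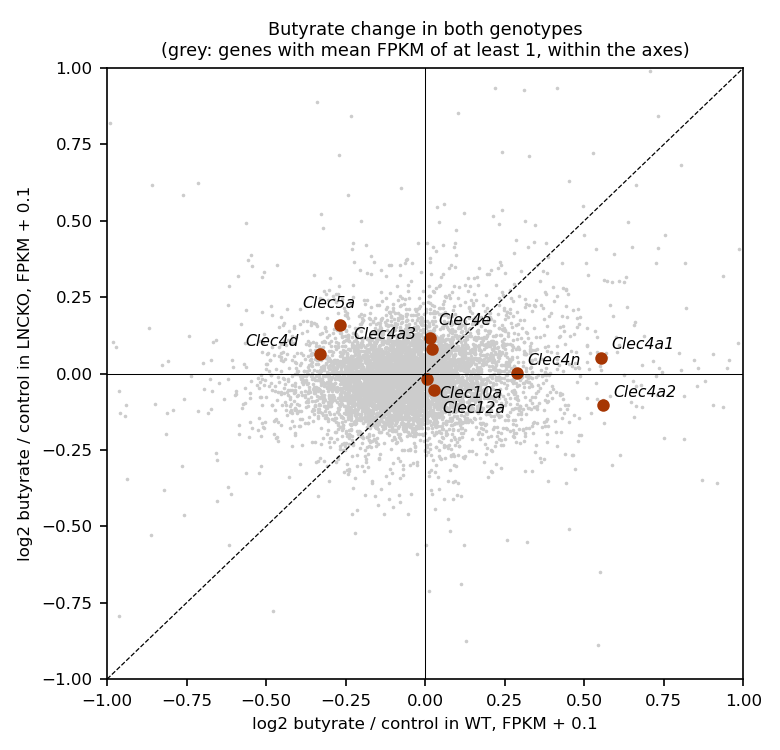
Log2 difference of butyrate against control in LNCKO (y axis) against that in WT (x axis), on FPKM + 0.1, for the 9 listed genes (named points) and the 6809 genes with a mean of at least 1 FPKM that fall within the axes (grey), with the line of equal values dashed. *Clec4a1* and *Clec4a2* lay near 0.55 in WT and near 0 in LNCKO, and *Clec4d* and *Clec5a* were below 0 in WT and above 0 in LNCKO.

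Along the gene cluster, the butyrate difference in WT did not run evenly from one end to the other. From *Clec4a1* at 0.55 it was 0.02 at *Clec4a3*, 0.56 at *Clec4a2*, 0.29 at *Clec4n*, -0.33 at *Clec4d* and 0.01 at *Clec4e*. The pair with the higher values, *Clec4a1* and *Clec4a2*, is thus parted by *Clec4a3*. In LNCKO the values of the same 6 genes lay between -0.10 and 0.12. The 3 cluster genes that are not among the named receptors were below the filter of 1 FPKM, with *Clec4a4* at 0.105 to 0.130 FPKM, *Clec4b1* at 0.0332 to 0.0911 FPKM and *Clec4b2* at 0.319 to 0.338 FPKM. Of the 2990 stretches of 100 bases in *Clec4a2* transcripts, 64 (2.14%) also occur in *Clec4a4*, and of those in *Clec10a* 2.64% occur in *Mgl2*. The other 7 listed genes shared none with another gene. *Clec4a2* also overlaps the pseudogene *Gm44132*, and how fragments of such stretches were assigned is not given in the sources used here.

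**Figure D5:**
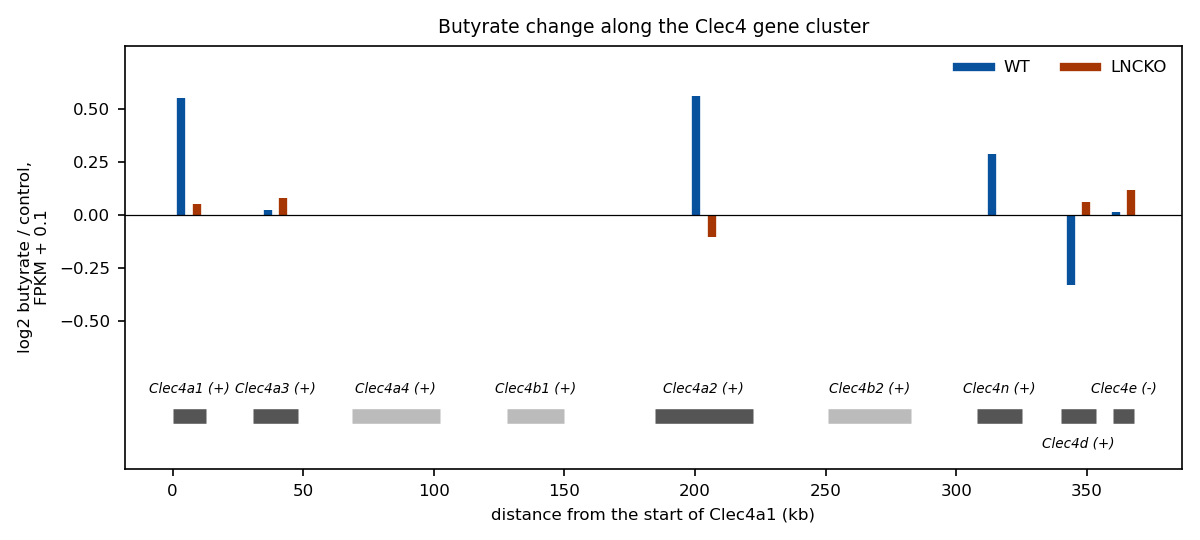
Log2 difference of butyrate against control (y axis, FPKM + 0.1) in WT and LNCKO at the 6 receptor genes of the cluster, by distance from the start of *Clec4a1* in kb (x axis), with gene spans drawn below to scale, members dark and other genes light. The WT bars were high at *Clec4a1* (0.55) and *Clec4a2* (0.56) and below 0 at *Clec4d* (-0.33), and the LNCKO bars stayed between -0.10 and 0.12.

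The signalling genes of these receptors were followed with a list of 30 adaptors, kinases, phosphatases and transcription factors, 26 of which had a mean of at least 1 FPKM. With butyrate in WT their median was -0.13 beside -0.05 over all genes, 24 of the 26 were below 0 and 2 above, where 36.9% of all genes were above 0, and none was past 1.5-fold, against 1.35% of all genes higher and 0.999% lower. With libraries scaled by their median ratio 22 of the 26 were below 0, and in LNCKO 15 of 26 were below 0 with a median of -0.02, beside -0.02 over all genes. *Fcer1g*, the FcR gamma chain, was at 109 and 104 FPKM without and with butyrate in WT and at 107 and 111 FPKM in LNCKO. *Tyrobp*, which encodes DAP12, was at 120, 108, 104 and 113 FPKM. *Hcst*, which encodes DAP10, was one of the 2 genes above 0 in WT, with 3.62, 4.78, 4.28 and 4.11 FPKM. *Hcst* was thus highest in WT butyrate, with a log2 difference of 0.39 to WT control, inside the central 95% of all genes (-0.44 to 0.43). *Tyrobp* (-0.15) and *Fcer1g* (-0.07) were below WT control, the latter close to the median of -0.05 over all genes.

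Downstream of the adaptors, *Syk* was at 9.41, 8.57, 9.56 and 9.24 FPKM in the 4 libraries in the same order. *Bcl10* was at 8.63, 6.91, 8.05 and 8.20 FPKM and *Malt1* at 1.82, 1.497, 1.82 and 1.79 FPKM. All 3 were lowest in WT butyrate. *Card9* was at 8.14, 7.43, 7.16 and 7.02 FPKM and was highest in WT control. *Ptpn6*, which encodes the phosphatase SHP-1 of the inhibitory receptors, was at 28.5, 23.9, 29.5 and 28.0 FPKM and was again lowest in WT butyrate, with a log2 difference of -0.25 to WT control.

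A second list held 18 genes known to be induced through these receptors, 12 of them with a mean of at least 1 FPKM. With butyrate in WT, *Cxcl2*, a neutrophil chemokine, was past 1.5-fold higher (log2 0.64) and *Egr2*, an immediate early factor, past 1.5-fold lower (-0.76), beside 1.35% and 0.999% of all genes, and the median was 0.07 beside -0.05. In LNCKO none was past 1.5-fold, against 0.529% of all genes higher and 0.22% lower. In LNCKO against WT without butyrate the median was 0.40 beside 0.02 over all genes, 10 of 12 were above 0, as were 56.7% of all genes, and 2 were past 1.5-fold higher (0.617% of all genes), *Ptgs2* (cyclooxygenase, 0.73) and *Egr1* (0.62). Under butyrate 11 of 12 were above 0 with a median of 0.28, beside 64.2% and 0.06 over all genes, and 3 were past 1.5-fold higher (1.56% of all genes), *Ptgs2* (1.133), *Egr2* (1.03) and the chemokine gene *Ccl3* (0.76). For the difference between genotypes 1 gene, *Il10*, was past 1.5-fold higher (1.5% of all genes), with 0.41 in WT and -0.24 in LNCKO. These genes answer to many other signals, and ligands of the receptors were not among the treatments.

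Transcripts of other cell types differed between the libraries as well. The summed FPKM of 10 genes of neutrophils and their precursors was 2669 without and 3128 with butyrate in WT and 2299 and 2214 in LNCKO. It was highest in WT butyrate, the library in which *Clec4a1* and *Clec4a2* were highest. The sums of macrophage identity and monocyte genes below were highest in that library as well. Of the neutrophil sums, *S100a8* alone gave 1186, 1316, 984 and 957 FPKM and *S100a9* 615, 862, 493 and 490 FPKM. The median log2 difference of these 10 genes with butyrate was 0.40 in WT, with 7 of 10 above 0, and -0.04 in LNCKO, with 3 of 10 above 0. The 3 genes below 0 in WT were *Camp* (-0.45), *Ngp* (-0.35) and *Ltf* (-0.18). Over all genes the median was -0.05 in WT and -0.02 in LNCKO, with 36.9% and 42.2% of genes above 0. The macrophage identity genes summed to 2584, 3515, 2213 and 1489 FPKM, with a median log2 butyrate difference of 0.17 in WT and -0.02 in LNCKO, and *Lyz2* alone gave 1972, 2871, 1609 and 870 FPKM of these sums. Monocyte genes summed to 1008, 1166, 1011 and 1068 FPKM, of which *Ly6c2* alone gave 728, 916, 752 and 807 FPKM. Their median log2 butyrate difference in WT was -0.15 with 5 of 7 below 0, where most of all genes were below 0 too. Dendritic cell genes summed to 19.3, 16.5, 17.8 and 17.2 FPKM. B cell genes summed to 209, 163, 213 and 216 FPKM, the lowest sum being that of WT butyrate. Mast cell and basophil genes summed to 46.0, 34.2, 71.4 and 69.1 FPKM, of which *Prss34* alone gave 38.0, 29.3, 58.0 and 56.9 FPKM. With butyrate in WT, 2 of the 3 mast cell and basophil genes with a mean of at least 1 FPKM were below 0 and 1 above. The part of cell composition in the receptor values was not tested.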

How the data were processed

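RNA of BMDMs was sequenced in 4 libraries, and groups were taken from the sample titles. The methods describe TRIzol extraction and 100-base paired reads on an MGISEQ-2000, while RNeasy, TruSeq and Illumina protocols stand in the labels. The submitters' processing notes name STAR 2.5.0c, HTSeq 0.6.0, Picard 1.126 and bedtools 2.17.0 with GRCm38. The authors deposited FPKM per gene and library and no counts. Columns were assigned by the library names in the labels. The deposited FPKM were found to rest on the whole gene span, since 16076 of 16342 genes matched to GENCODE M21 (98.4%) gave whole fragments within 0.01 in all 4 libraries on their span. Library totals and fragments were not given and were inferred from the FPKM on the span. With the same totals, 6.88% of genes gave whole fragments on their exon length. No total was fitted for exon length, so this share is not a fair comparison. All 9 listed receptors gave whole fragments, and counting intervals are exact binomial (Clopper-Pearson) 95% intervals on them. Fragments carry no molecular identifiers and are not independent molecules.

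Differences were log2 ratios of FPKM + 0.1, which understates differences of low genes, and plain ratios are given as such. A fold of 1.5 was used for calls over 6809 genes with a mean of at least 1 FPKM and over all 9 receptors, *Clec4n* with a mean of 0.898 FPKM included. The steps were tested on simulated data. With 1 library per group no test was run. The receptors and gene lists were chosen with earlier results of these data known. The text names the 10 receptors, the first adaptors and kinases of the pathway (*Fcer1g*, *Tyrobp*, *Hcst*, *Syk*, *Card9*, *Bcl10*, *Malt1* and *Ptpn6*), genes of the lists past 1.5-fold, and *Ddx3y*. *Adgre1*, *Csf1r*, *S100a8*, *S100a9*, *Ngp*, *Camp*, *Ltf*, *Lyz2*, *Ly6c2* and *Prss34* of the marker lists, the other cluster genes, *Mgl2* and *Gm44132* were named after their values were seen. Alternatives were other pseudocounts, filters, folds, scalings and lengths. Promoters were taken from RefSeq on GRCm38.p6. Python 3.11.15, numpy 2.4.6, pandas 2.3.3, scipy 1.17.1 and matplotlib 3.10.9 were used. The study's other assays were not used here.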

Additional observations from a re-analysis of the deposited data

Results flagged for a closer look

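In 3 receptors the butyrate difference pointed one way in WT and the other way in LNCKO, with a counting interval that left out 1 in both genotypes. The share of all genes that did so was not computed. Such an interval left out 1 even at a ratio of 1.04 (*Clec4d* in LNCKO), so the flag is not shown to be particular to these receptors. With 1 library per group the difference between genotypes was not tested. For *Clec4a2*, an inhibitory receptor gene, the log2 difference in WT minus that in LNCKO was 0.66. For *Clec4d*, which encodes the partner of Mincle, it was -0.39. For *Clec5a*, which encodes the DAP12-coupled receptor MDL-1, it was -0.43. The values in LNCKO were the smaller ones in all 3 genes, at -0.10, 0.06 and 0.16.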

How the results depend on the processing

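Of 270 receptor values under another pseudocount, scaling or length, 269 stayed within 0.2 of the reported log2 value, and 1, *Clec4n* in LNCKO against WT under butyrate, went from -0.58 to -0.31 with a pseudocount of 1, which weighs more on low genes by construction. In 26 of them the sign differed, all with a reported size of at most 0.14. Receptors at least 1.5-fold higher with butyrate in WT numbered 2 instead of 0 with libraries scaled by their median ratio. Receptors lower in LNCKO against WT under butyrate numbered 1 as reported, 0 with a pseudocount of 1, with macrophage identity scaling or at 2-fold, 2 with no pseudocount and 3 with median-ratio scaling, *Clec4n*, whose mean was below 1 FPKM, being among the last 2 counts. With values rescaled to 1000000 per library or with exon length the count stayed at 1, with *Clec4n* in place of *Clec4a2*. For the difference between genotypes 1 receptor was higher as reported and 0 with a pseudocount of 1, with macrophage identity scaling or at 2-fold.

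Scaling by macrophage identity genes moved the median of all genes by -0.16 with butyrate in WT, by 0.19 in LNCKO against WT under butyrate and by -0.15 for the difference between genotypes. Relative to the median of all genes, *Clec4a1* and *Clec4a2* stood at 0.61 each with butyrate in WT. Genes higher and lower with butyrate in WT were 92 and 68 as reported, 114 and 53 with median-ratio scaling, 85 and 110 at 1000000 per library, 91 and 100 with exon length, and 55 and 192 with macrophage identity scaling. In LNCKO against WT under butyrate they were 106 and 88, then 79 and 106, 144 and 79, 143 and 79, and 286 and 45 in the same order. For the difference between genotypes they were 102 and 96, then 117 and 79, 99 and 140, 102 and 134, and 62 and 223.

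Without a filter, genes higher and lower numbered 404 and 264 with butyrate in WT, 226 and 145 in LNCKO, 237 and 247 in LNCKO against WT without butyrate, 328 and 377 under butyrate, and 548 and 453 for the difference between genotypes. With a mean of at least 5 FPKM, which leaves fewer genes, they numbered 29 and 16, 10 and 4, 16 and 5, 30 and 26, and 28 and 21. No paired analysis was possible because each group had 1 library and no test was run, and leaving out a library would empty its group. Depth limited *Clec4n* most, with 683 to 1184 fragments.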

Other observations

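Most other C-type lectin genes had a mean below 1 FPKM on the gene span, a scale that also depends on the size of their introns. *Mrc1*, for one, had 8684 to 9261 fragments at its low FPKM, more than the 4957 to 6607 of *Clec4e*. Of 30 listed genes of the family outside the named receptors, 26 were in the table and 6 had a mean of at least 1 FPKM. These 6 were *Cd93*, *Clec2d*, *Cd69*, *Klrd1*, *Mrc1* and *Mgl2*. *Cd69*, an early activation marker of leukocytes, was at 9.44 FPKM without and 6.92 FPKM with butyrate in WT, and at 11.3 and 11.1 FPKM in LNCKO. It was lowest in WT butyrate and the only 1 of the 6 past 1.5-fold in any comparison. It was higher in LNCKO than in WT under butyrate (log2 0.67), as were 1.56% of all genes by at least 1.5-fold. In the other comparisons 0.529% to 1.5% of all genes were past 1.5-fold higher, and over all comparisons 0.22% to 1.41% were lower. *Mrc1*, the macrophage mannose receptor, was at 1.55, 1.43, 1.65 and 1.38 FPKM and was lower with butyrate in both genotypes. *Mgl2*, the neighbour gene most like *Clec10a*, was at 1.25, 0.982, 1.01 and 1.09 FPKM. With butyrate in WT, 5 of the 6 were below 0 with a median of -0.10, beside -0.05 over all genes. The names of these 6 genes were given after their values were seen.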
